A study of Homo sapiens with 14 samples.

Results

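ATP-binding cassette (ABC) genes were followed across 14 human neuroblastoma cell lines. The members were all rows of the deposited count table whose symbol is ABC, a subfamily letter from A to G and a number, which gave 45 of 20049 gene symbols. Each line is an established culture with 1 RNA library: NGP, NBL-S, LS, Lan-6, CLB-GA, GI-ME-N, SK-N-FI, SK-N-DZ, SK-N-AS, SK-N-BE(2)C, and 2 parent lines, SK-N-SH and IMR32, beside the lines known to derive from them, SH-SY5Y and IMR5-75 respectively. All grew in serum-containing RPMI1640 or DMEM with no antibiotic, and the labels give no drug, no genotype and no class of lines. No line was sequenced again, so no contrast of single lines can be set against replicate error, and intervals on single values hold the counting error alone. In bulk RNA, fewer cells of a type and less RNA per cell cannot be told apart.

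ABC proteins bind and hydrolyse ATP, and most of them use it to move a substrate across a membrane. ABCB1 (P-glycoprotein), ABCC1 (MRP1) and ABCG2 (BCRP) are the pumps best known for carrying cytotoxic drugs out of tumour cells, and ABCC1 has long been studied in neuroblastoma beside the oncogene MYCN. Others move lipids, sterols, bile salts, peptides or nucleotides, or regulate a potassium channel. The E and F subfamilies have no membrane spans and act on ribosomes.

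Levels are CPM, a gene's counts relative to all counts of its library, after the libraries were scaled to each other. Of the 45 members, 21 reached at least 1 CPM in all 14 lines, against 52.8% of all symbols. A further 19 reached it in some lines and 5 in none, namely ABCA13, ABCB5, ABCC11, ABCC13 (a pseudogene) and ABCG2. The family's summed level ran from 1329.6 CPM in SK-N-FI to 2384 CPM in SK-N-BE(2)C. Among 44 members with a count above 0 in every line, 12 had their highest level in SK-N-BE(2)C, where 7.44% of 16320 such genes did. GI-ME-N was lowest for 16 of the 44 members and for 15.6% of those genes.

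Library totals ranged from 35856642 counts (Lan-6) to 58644013 counts (LS). The Lan-6 and GI-ME-N libraries held less signal in long transcripts. Rank correlations of level ratio with transcript length were -0.405 and -0.274 over 12469 genes, against -0.124 to 0.216 in the other libraries. With GC content (base composition) the correlation was 0.574 in Lan-6, against -0.332 (LS) to 0.132 (GI-ME-N) in the other libraries. ABC transcripts are long, with a median of 5300 bases against 2731 over all genes. With the trend on length and base composition removed, GI-ME-N was lowest for 11 members rather than 16, while SK-N-BE(2)C stayed highest for 12. The matching shares of all genes with the trend removed were not computed, so these counts have no background beside them. HAND2, a defining sympathetic neuroblast factor, was at 111 CPM in its lowest line (SK-N-SH) and 1101 CPM in its highest (CLB-GA). A score of 15 adrenergic markers, in log2 units relative to the mean of lines, was lowest in GI-ME-N (-3.88) and SK-N-SH (-3.44) and lay between -1.83 and 2.34 in the other lines. Fibroblast markers summed to between 87.0 CPM (IMR32) and 16514 CPM (SK-N-SH), and endothelial markers to between 1.12 and 10.7 CPM.

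**Figure D1:**
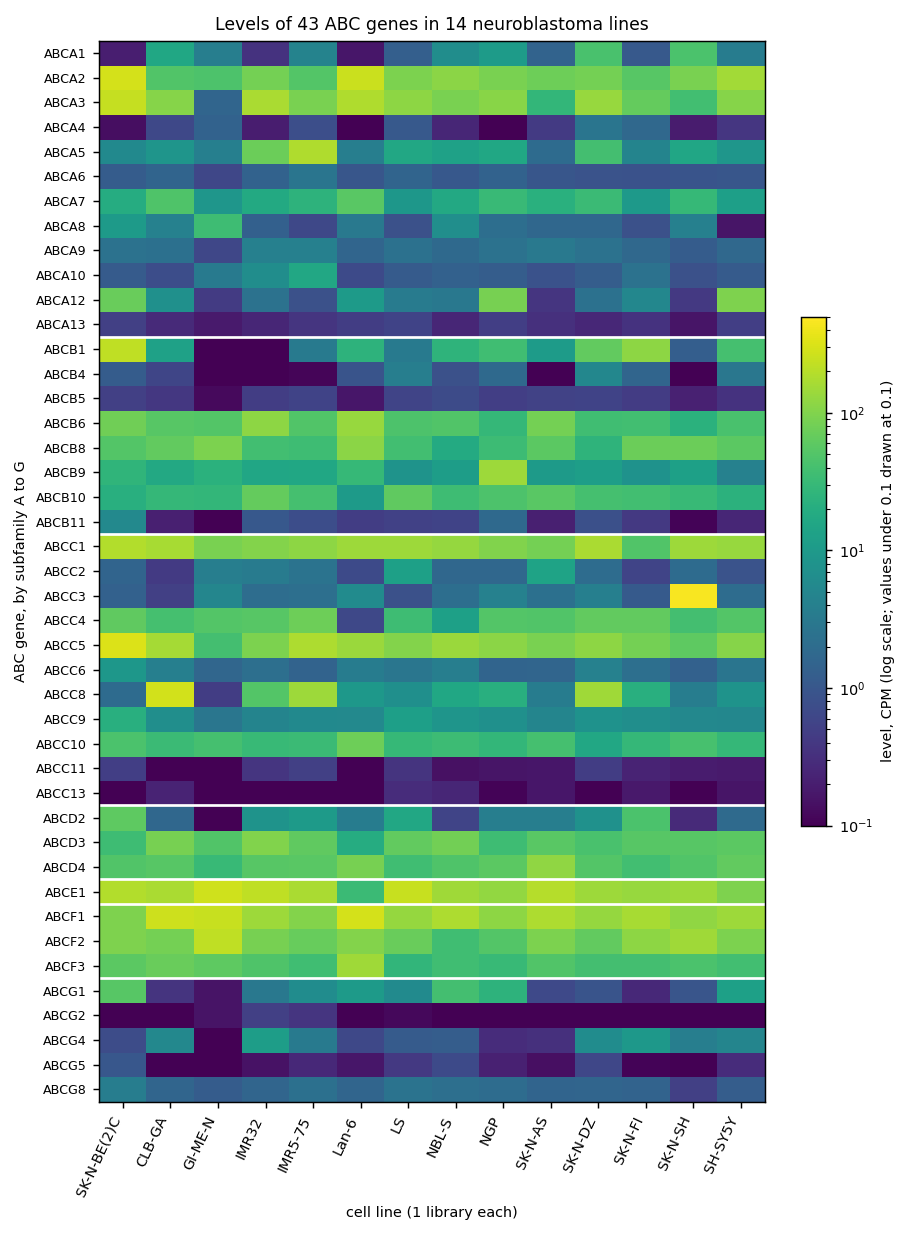
Level of 43 of the 45 ABC genes (rows, by subfamily A to G) in each of the 14 lines (columns), as CPM on a log colour scale. The E and F subfamilies and ABCC1 are at 27.0 CPM or more in every column, while ABCB1, ABCC3, ABCC8 and ABCA12 range from under 1 CPM to at least 96.1 CPM between lines.

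The efflux pumps differed in how far they varied. ABCB1 spanned the widest range of the 45 members, with an SD of 3.58 on the log2 scale over the 12 lines that leave out the derived lines SH-SY5Y and IMR5-75. SK-N-BE(2)C was highest with 225 CPM, followed by SK-N-FI with 117, SK-N-DZ with 65.2, SH-SY5Y with 40.7, NGP with 36.5, NBL-S with 25.2 and Lan-6 with 24.6. Below these were CLB-GA at 13.2 CPM, SK-N-AS at 10.6, IMR5-75 at 3.32, LS at 3.21 and SK-N-SH at 1.29. GI-ME-N held 3 ABCB1 counts (0.0930 CPM, 95% Poisson interval 0.0192 to 0.272) and IMR32 held 2 (0.0499 CPM, 0.00604 to 0.180). The counting intervals of SK-N-BE(2)C (220 to 229 CPM) and SK-N-FI (114 to 120 CPM) did not overlap, whereas those of NBL-S and Lan-6 did. With the trend on length and base composition removed Lan-6 was at 46.9 CPM, above NBL-S at 23.2.

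ABCB1 lies on the minus strand of chromosome 7 (chr7:87503633-87713323, GRCh38). RefSeq gives it an upstream and a downstream start far apart, and the 250 bases before each (GRCh38.p14, minus strand) are shown because the gene count sums transcripts from both, so the starts cannot be told apart here. Capitals mark CCAAT or its complement ATTGG. The upstream window is chr7:87713296-87713545 and the downstream window is chr7:87600885-87601134.
ABCB1 upstream start: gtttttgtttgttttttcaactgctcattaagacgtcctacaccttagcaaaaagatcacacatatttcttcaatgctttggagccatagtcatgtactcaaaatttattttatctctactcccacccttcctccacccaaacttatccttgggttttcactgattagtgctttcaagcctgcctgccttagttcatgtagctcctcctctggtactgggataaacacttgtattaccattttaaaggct
ABCB1 downstream start: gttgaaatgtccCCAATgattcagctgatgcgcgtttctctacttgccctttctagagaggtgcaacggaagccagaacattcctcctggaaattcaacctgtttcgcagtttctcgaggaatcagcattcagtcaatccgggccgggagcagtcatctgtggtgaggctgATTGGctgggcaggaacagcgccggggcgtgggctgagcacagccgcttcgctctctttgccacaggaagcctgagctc
The downstream window held 2 CCAAT boxes and a GC content of 55.6%, and the upstream window held none and a GC content of 39.2%. CCAAT on either strand occurred in 32.0% of 35116 RefSeq windows of this length.

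ABCC1, which exports glutathione and glucuronide conjugates, was high throughout. SK-N-BE(2)C (188 CPM), SK-N-DZ (167) and CLB-GA (164) led, followed by SK-N-SH and Lan-6 (142 each), LS (141), SH-SY5Y (136) and NBL-S (131). It was 117 CPM in IMR5-75, 104 in IMR32, 100.2 in NGP, 90.1 in GI-ME-N and 84.4 in SK-N-AS. SK-N-FI was lowest at 49.6 CPM, and the same line had the second highest ABCB1 level. The SD of ABCC1 was 0.54 on the log2 scale, below the 0.84 median of all genes tested.

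ABCG2, a pump of many drugs and of urate, was near the limit of detection. No count was seen in 8 lines (NGP, NBL-S, Lan-6, CLB-GA, SK-N-FI, SK-N-DZ, SK-N-AS and SK-N-BE(2)C), where 3 counts would be 0.0542 to 0.102 CPM. The other lines held 20 counts (IMR32, 0.499 CPM), 17 (IMR5-75, 0.377 CPM), 7 (LS, 0.120 CPM), 5 (GI-ME-N, 0.155 CPM), 3 (SK-N-SH, 0.0823 CPM) and 1 (SH-SY5Y, 0.0229 CPM). The highest values were thus in IMR32 and its derivative, whose counting intervals overlapped (0.305 to 0.771 and 0.219 to 0.603 CPM).

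ABCC3, a pump of bile salts and glucuronides in liver and gut, was a gene of 1 line. SK-N-SH held 16677 counts (458 CPM), 75.9 times the next line, Lan-6, at 6.03 CPM. The remaining 12 lines lay between 0.507 CPM (CLB-GA) and 5.05 CPM (GI-ME-N). ABCC4, which exports cyclic nucleotides and prostaglandins, showed the reverse pattern of 1 low line. It ran from 12.6 CPM in NBL-S to 76.5 CPM in IMR5-75 in 13 lines, and Lan-6 held 19 counts (0.644 CPM, interval 0.388 to 1.01, and 1.36 CPM with the length and base composition trend removed).

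ABCC5, which exports cyclic GMP and nucleotide analogues, was highest in SK-N-BE(2)C at 317 CPM, followed by IMR5-75 at 175, CLB-GA at 159, NBL-S at 140.5 and Lan-6 at 137. SK-N-DZ (116 CPM), NGP (114), SH-SY5Y (106), LS (104), IMR32 (94.0), SK-N-AS (89.2) and SK-N-FI (84.4) were intermediate. At the low end lay SK-N-SH (61.3 CPM) and GI-ME-N (39.4 CPM, or 49.7 with the trend removed). ABCC10 varied little (16.5 to 76.1 CPM), and ABCC2, an apical pump of conjugates, exceeded 10 CPM only in SK-N-AS (13.9) and LS (12.6).

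**Figure D2:**
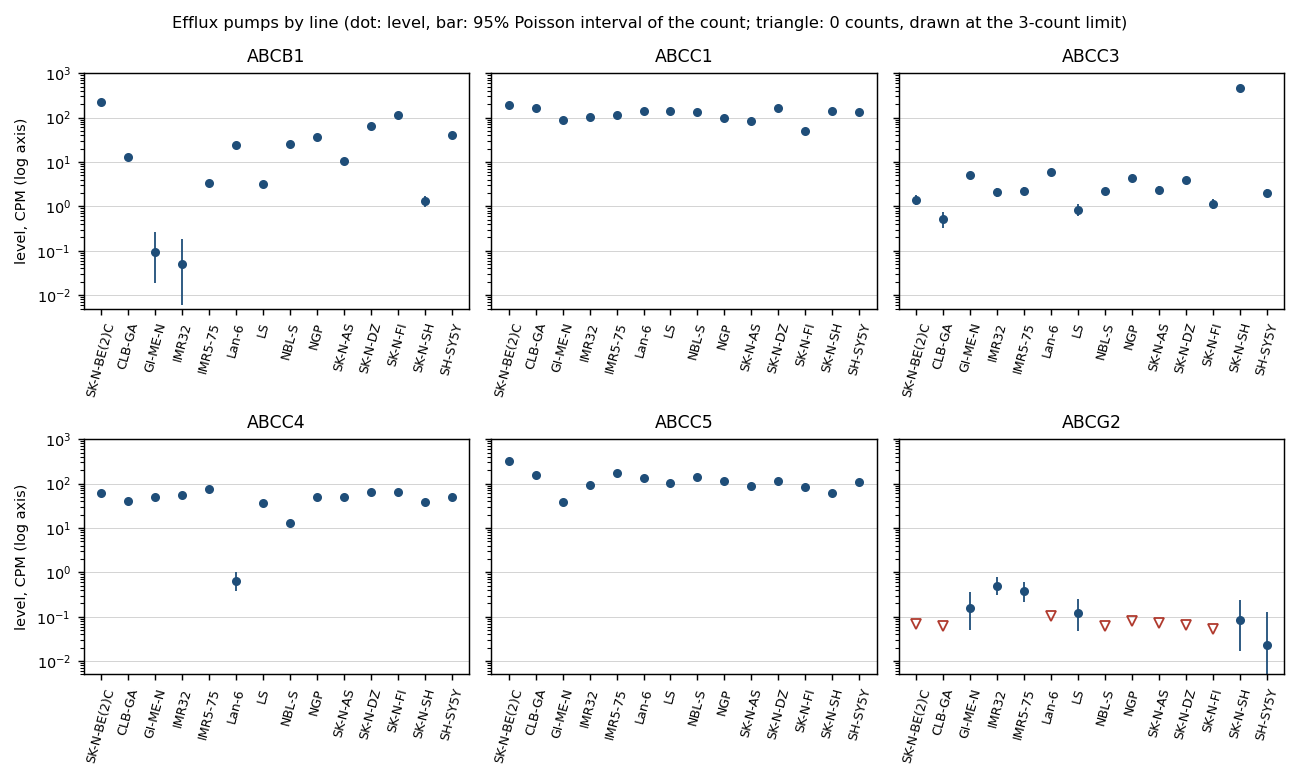
Level of 6 efflux pumps by line, in CPM on a log axis, with 95% Poisson intervals of the counts and open triangles at the 3-count limit where no count was seen. ABCC1 and ABCC5 stay between 39.4 and 317 CPM, ABCB1 spans 0.0499 to 225 CPM, ABCC3 stands out in SK-N-SH, ABCC4 is low in Lan-6 and ABCG2 is at or below 0.499 CPM.

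Among the 12 lipid transporters of the A subfamily, 4 reached 1 CPM in every line (ABCA2, ABCA3, ABCA5 and ABCA7). ABCA2, abundant in myelinating and neural cells, ran from 46.0 CPM (GI-ME-N) to 290.6 CPM (SK-N-BE(2)C). With the trend removed GI-ME-N was at 83.8 CPM and CLB-GA was lowest at 42.6 CPM. ABCA3, a lysosomal phospholipid transporter best known from lung surfactant, was at 27.8 to 238 CPM in 13 lines and at 1.61 CPM in GI-ME-N, or 2.39 CPM with the trend removed. ABCA12, the lipid transporter of skin keratinocytes, reached 96.1 CPM in SH-SY5Y, 86.0 in NGP and 72.3 in SK-N-BE(2)C and did not exceed 10.2 CPM in any other line, with a median of 3.26 CPM and a lowest level of 0.378 CPM in SK-N-AS.

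ABCA1, which loads cellular cholesterol and phospholipid onto apolipoprotein A-I, had its highest levels in SK-N-SH (45.2 CPM) and SK-N-DZ (43.7 CPM), whose counting intervals overlapped. SK-N-BE(2)C with 9 counts (0.205 CPM) and Lan-6 with 5 (0.169 CPM) were lowest. ABCG1, which passes cholesterol to lipoprotein particles, had another order of lines, with SK-N-BE(2)C (54.3 CPM), NBL-S (39.6), NGP (24.3), SH-SY5Y (12.6) and Lan-6 (10.4) on top. The other 9 lines lay between 0.155 and 6.38 CPM. With the trend removed Lan-6 was at 0.341 CPM for ABCA1 and SK-N-BE(2)C was lowest at 0.183 CPM. SK-N-BE(2)C was thus highest for one sterol exporter and among the lowest for the other.

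The neighbours ABCA5 and ABCA10 on chromosome 17, whose annotated spans overlap by 536 bases on 1 strand, peaked in the same lines. ABCA5 was at 179.8 CPM in IMR5-75, 72.9 in IMR32 and 39.3 in SK-N-DZ, against 1.96 to 16.3 CPM in the rest, and its highest line was 16.3 times its median line. ABCA10 was at 16.6 CPM in IMR5-75 and 6.59 CPM in IMR32, against 0.678 to 3.32 CPM. ABCA8, also in this cluster, peaked instead in GI-ME-N at 35.6 CPM, with SK-N-BE(2)C next at 10.5 CPM, a median of 1.96 CPM and 7 counts (0.161 CPM) in SH-SY5Y.

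None of the 6 bile and sterol transporters, ABCG1 among them, reached 1 CPM in every line. ABCB11, the bile salt export pump of hepatocytes, reached 5.53 CPM in SK-N-BE(2)C, 1.83 in NGP and 1.05 in IMR32, and was under 1 CPM elsewhere. ABCB4, the phosphatidylcholine flippase that neighbours ABCB1, was highest in SK-N-DZ (5.11 CPM) and LS (3.81 CPM). ABCG5 and ABCG8, partners in sterol excretion, lie on opposite strands and overlap by 6924 bases, so counts near 1 CPM may be shared between them. ABCC6, at 1.43 to 9.01 CPM, shares sequence with a pseudogene copy and its level is uncertain for that reason.

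ABCC8 and ABCC9, the sulphonylurea receptors, form potassium channels with KCNJ11 and KCNJ8. ABCC8 stood at 280.4 CPM in CLB-GA, 149 in SK-N-DZ, 142 in IMR5-75 and 51.6 in IMR32, with the others between 0.465 CPM (GI-ME-N) and 21.8 CPM (SK-N-FI) and a median of 12.7 CPM. KCNJ11, which lies next to ABCC8, was highest in the same 3 lines, at 65.1, 40.3 and 28.7 CPM, and was at 8.93 CPM or less elsewhere. ABCC9 and KCNJ8 were both highest in SK-N-BE(2)C, at 21.3 and 110.3 CPM.

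The mitochondrial and lysosomal members of the B subfamily were expressed in every line. ABCB10, a transporter of the mitochondrial inner membrane, ran from 10.3 CPM (Lan-6) to 66.2 CPM (IMR32), and ABCB8 of the same membrane from 18.0 CPM (NBL-S) to 114 CPM (Lan-6). With the trend removed ABCB10 was at 16.1 CPM in Lan-6 and highest in SK-N-AS (62.5 CPM), and ABCB8 was highest in GI-ME-N (122 CPM). ABCB9, a lysosomal peptide transporter, stood apart in 1 line, at 143 CPM in NGP against 30.0 CPM or less elsewhere. In the peroxisomal group ABCD3 ran from 19.4 CPM (Lan-6, or 38.3 with the trend removed) to 99.5 CPM (IMR32), whereas ABCD2, an importer of very long chain fatty acids, ranged from 3 counts in GI-ME-N (0.0930 CPM, or 0.141 with the trend removed) to 45.5 CPM in SK-N-FI and 60.0 CPM in SK-N-BE(2)C. ABCD4, which takes part in the release of vitamin B12 from lysosomes, was at 31.0 CPM (GI-ME-N) to 122 CPM (SK-N-AS).

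Compared per length, 3 of the 4 translation factors led. Median levels were 41.0 CPM per kilobase for ABCF1, 40.2 for ABCE1 and 25.6 for ABCF2, followed by ABCC1 at 20.4 and ABCC5 at 18.6, while ABCF3 ranked 9 at 16.1. ABCF1, which binds initiation factor eIF2, had a median of 143 CPM and reached 290.0 CPM in Lan-6, and ABCF2 ran from 36.9 CPM (NBL-S) to 223 CPM (GI-ME-N). ABCE1 separates ribosomal subunits after termination. It was at 96.8 to 271 CPM in 13 lines and at 32.9 CPM in Lan-6, and with the trend removed Lan-6 was still lowest at 67.1 CPM. ABC proteins whose symbols fall outside the naming rule gave a contrast. The peptide transporter TAP1 was highest in SK-N-SH (44.1 CPM), then SK-N-FI (17.3), and did not exceed 4.86 CPM elsewhere. TAP2 was high in more lines, at 42.0 CPM in SK-N-SH, 40.5 in SK-N-BE(2)C, 35.3 in SK-N-FI and 25.9 in SK-N-AS. CFTR did not exceed 0.273 CPM.

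The spread of the members between lines was set beside that of all genes. Their median SD on the log2 scale was 0.90 over the 39 that passed a mean of 0.5 CPM, against 0.84 over all such genes, and 9 of the 39 (23.1%) had an SD above 2, against 17.4% of all. The 6 that did not pass were ABCA13, ABCB5, ABCC11, ABCC13, ABCG2 and ABCG5. Of 35 members with at least 5 CPM in their highest line, 12 were at least 10 times their median line there, and 15.4% of all such genes were. These 12 were ABCA1, ABCA5, ABCA8, ABCA10, ABCA12, ABCB1, ABCB9, ABCB11, ABCC3, ABCC8, ABCD2 and ABCG1.

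Whether members follow MYCN was asked with a slope of each gene on the MYCN level, in log2 units per SD (1 SD is 4.69 log2 units), by edgeR's quasi-likelihood test over 12 lines. MYCN itself was lowest in SK-N-SH (0.384 CPM) and highest in SK-N-BE(2)C (2245 CPM). At an adjusted p under 0.05 over all 16529 genes, ABCB11 was the 1 member of 39 that rose (1.16% of all genes rose) and ABCC3 was the 1 that fell (2.96% fell). ABCB11 rose by 1.55 (SE 0.32, adjusted p = 0.0299), and its lowest levels were in GI-ME-N (3 counts), SK-N-SH (4 counts), SK-N-AS (9 counts) and CLB-GA (10 counts). It passed the filter of 0.5 CPM through its high lines, with a mean of 0.982 CPM over the 12 lines and a median of 0.494 CPM over all 14, and with no filter its adjusted p was 0.0331. ABCC3 fell by 2.40 (SE 0.54, adjusted p = 0.0355), which rests on the SK-N-SH library, since without it the adjusted p was 0.669. The ABCC3 call was also lost without NGP, NBL-S, LS, IMR32, GI-ME-N, SK-N-DZ or SK-N-BE(2)C, with adjusted p from 0.0176 upward over the omissions. Without any 1 of these lines or SK-N-SH, 0 to 1.59% of all genes fell, against 2.96% with all 12 lines. The ABCB11 call was lost without any 1 of 7 lines (NGP, NBL-S, IMR32, GI-ME-N, SK-N-SH, SK-N-DZ or SK-N-BE(2)C). Over those 7 omissions 0 to 0.552% of all genes rose, against 1.16% with all 12 lines. The adjusted p of ABCB11 lay between 0.0214 and 0.0675 over the 12 omissions. With the trend on length and base composition removed its adjusted p was 0.0611. DESeq2 called 6 members rising (7.82% of all genes), ABCA12, ABCB4, ABCB11, ABCC9, ABCD2 and ABCG1, and 3 falling (10.4%), and limma on the deposited log2 values called 0 rising (1.22%) and 0 falling (1.13%), where 9 and 2 members had an unadjusted p under 0.05 (11.9% and 11.7% of all genes).

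ABCA12 had a larger slope of 2.21 (SE 0.63, adjusted p = 0.0644 by edgeR) and ABCB4 one of 1.87 (SE 0.58, adjusted p = 0.0789), and neither passed. For ABCB1 the slope was 1.49 (SE 0.83, adjusted p = 0.279), for ABCC5 0.46 (SE 0.19, adjusted p = 0.156), for ABCC1 0.14 (SE 0.15, adjusted p = 0.584) and for ABCC4 0.15 (SE 0.34, adjusted p = 0.801). These 4 pumps did not pass, which does not show that their slopes are 0. Over the 39 members the median slope was 0.20, with 26 positive, against -0.03 over all genes, of which 46.8% were positive.

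Windows of 250 bases before RefSeq starts (GRCh38.p14) were searched on both strands for the E-box CACGTG, which MYC proteins bind, the GC box GGGCGG and the CCAAT box. The E-box occurred in 9 of 50 windows of the 34 members matched in the table and in 6.34% of 35116 windows of all genes. The GC box occurred in 25 of the 50 and in 42.6% of all, and the CCAAT box in 10 of the 50 and in 32.0% of all. The windows of ABCB11 (chr2:169031325-169031574), of ABCC5 (chr3:184017885-184018134) and of the inner start of ABCA12 (chr2:215032087-215032336) are shown because ABCB11 and ABCC5 were called in a slope test and ABCA12 had the steepest positive slope on MYCN. ABCC3, also called, was not among the members matched. All 3 genes lie on the minus strand, and capitals mark any of these motifs or its complement.
ABCB11: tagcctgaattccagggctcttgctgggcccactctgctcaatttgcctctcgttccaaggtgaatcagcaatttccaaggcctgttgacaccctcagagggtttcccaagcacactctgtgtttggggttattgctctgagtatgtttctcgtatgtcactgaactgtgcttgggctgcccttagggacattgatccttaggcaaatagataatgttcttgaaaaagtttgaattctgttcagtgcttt
ABCC5: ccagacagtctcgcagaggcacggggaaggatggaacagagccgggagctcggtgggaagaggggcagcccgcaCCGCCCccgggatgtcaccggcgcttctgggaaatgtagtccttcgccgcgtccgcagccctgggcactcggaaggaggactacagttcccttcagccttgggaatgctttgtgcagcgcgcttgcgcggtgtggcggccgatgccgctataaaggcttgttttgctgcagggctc
ABCA12 inner start: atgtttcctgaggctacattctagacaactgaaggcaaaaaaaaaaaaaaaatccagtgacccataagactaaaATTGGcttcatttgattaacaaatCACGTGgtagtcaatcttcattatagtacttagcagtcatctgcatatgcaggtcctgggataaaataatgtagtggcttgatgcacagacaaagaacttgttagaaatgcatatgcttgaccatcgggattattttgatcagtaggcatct
ABCB11, the member called as rising, held no match in its window, ABCC5 held 1 GC box, and the inner start of ABCA12 held 1 E-box and 1 CCAAT box. The outer start of ABCA12 and both starts of ABCB1 held no E-box. These letters describe the windows and say nothing of binding.

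Neuroblastoma lines are known to lie between an adrenergic and a mesenchymal state. A score of 15 mesenchymal markers was highest in SK-N-SH (6.01 log2 units above the mean of lines) and GI-ME-N (4.77), then LS (1.94). In the same test over 12 lines, ABCC3 was the 1 member that rose with this score (3.88% of all 16515 genes rose) and ABCC5 the 1 that fell (2.12% fell). ABCC3 rose by 2.32 per SD (SE 0.37, adjusted p = 0.00313 by edgeR), again through SK-N-SH, without which the adjusted p was 0.831. Without SK-N-SH and GI-ME-N its slope was -0.24. ABCC5 fell by 0.61 (SE 0.16, adjusted p = 0.0371 by edgeR), and its lowest levels were in those same lines. That call was lost without any 1 of 7 lines (NBL-S, GI-ME-N, CLB-GA, SK-N-SH, SK-N-DZ, SK-N-AS or SK-N-BE(2)C). Over those 7 omissions 0.639 to 1.99% of all genes fell, against 2.12% with all 12 lines. The adjusted p of ABCC5 lay between 0.0348 and 0.174 over the omissions, and with the trend removed it was 0.0595. DESeq2 called 1 member rising (6.6% of all genes) and 8 falling (9.16%), and limma on the deposited log2 values called 0 rising (3.16%) and 2 falling (2.82%), where 2 and 8 members had an unadjusted p under 0.05 (9.49% and 10.0% of all genes).

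ABCB1 had a slope of -2.37 on the score (SE 0.82, adjusted p = 0.119 by edgeR), ABCA12 one of -2.29 (SE 0.73, adjusted p = 0.0913), ABCC8 one of -1.89 (SE 0.70, adjusted p = 0.143) and ABCC1 one of -0.10 (adjusted p = 0.77). None of these passed. Of the 39 members 27 had a negative slope, against 51.7% of all genes, and the median was -0.19 against -0.02. The MYCN level and the score draw on the same 12 lines and are both extreme in SK-N-SH, so the slopes are not independent of each other. In these lines 3 of 7 fibroblast markers tested rose with the score (COL1A2, COL3A1 and POSTN), against 3.88% of all genes. The score itself holds the fibroblast marker COL1A1, so this is not independent of how the score was built. Of 15 adrenergic markers 6 fell, against 2.12% of all genes. CD68, 1 of 4 leukocyte markers tested, and 1 of 4 Schwann markers also rose. Leukocyte markers summed to between 4.96 CPM (SH-SY5Y) and 487 CPM (SK-N-AS) with CD3E at 0.0683 CPM or less, and Schwann markers to between 3.74 and 19.4 CPM with SOX10 at 0.559 CPM or less. The part of other cells in the ABC slopes was not tested.

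**Figure D3:**
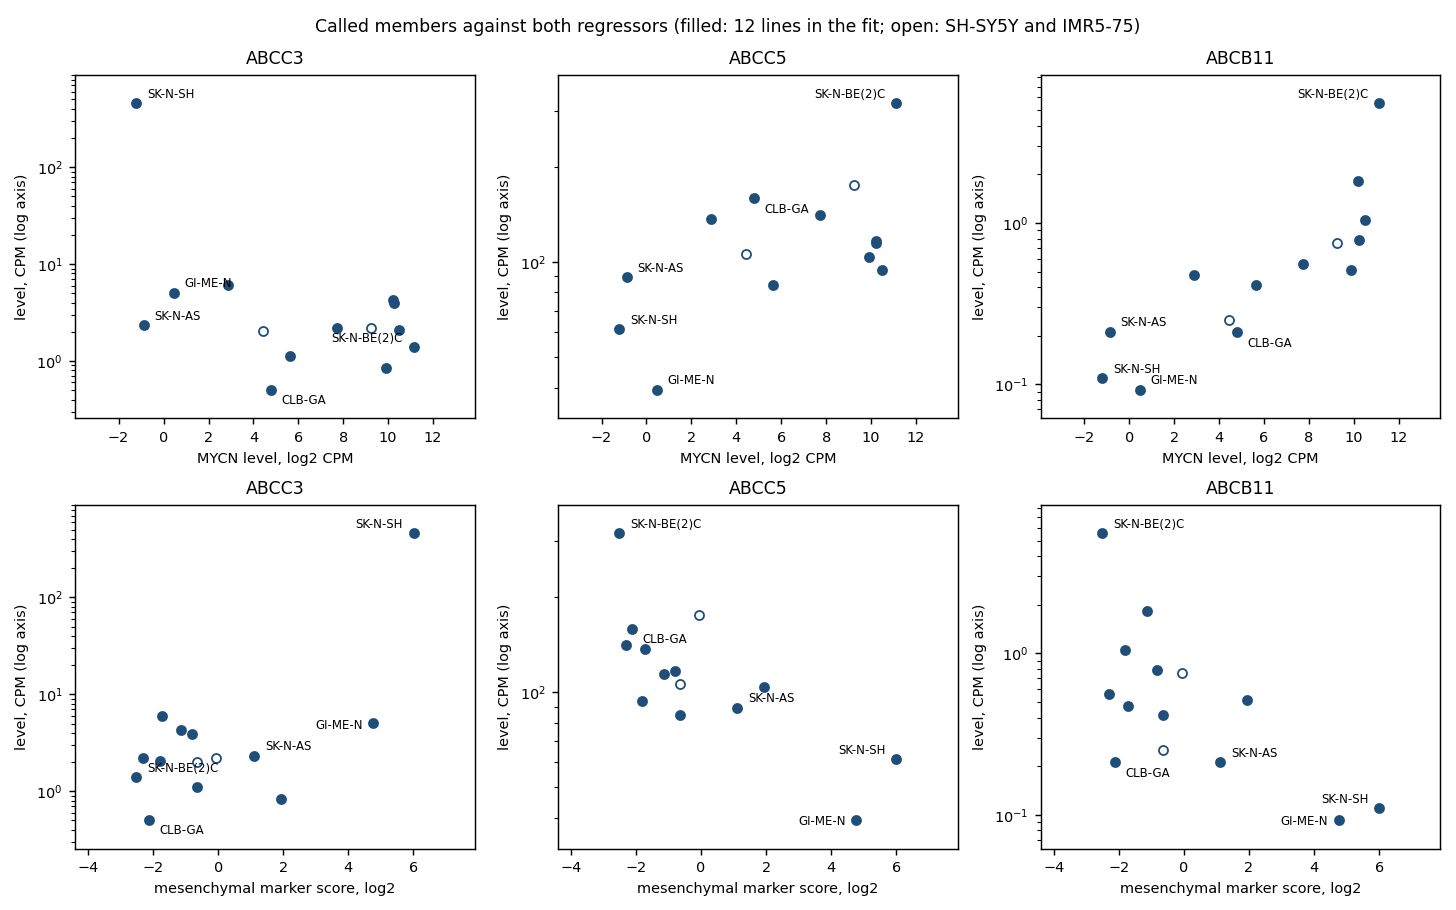
Levels of ABCC3, ABCC5 and ABCB11 in CPM on a log axis against the MYCN level in log2 CPM (top) and against the mesenchymal marker score in log2 units (bottom), 1 point per line. SK-N-SH lies apart for ABCC3 at 458 CPM, SK-N-SH and GI-ME-N are lowest for ABCC5, and ABCB11 stays at or under 5.53 CPM.

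Genes that work with the members, from lists of pathway partners, were read in the same fits. With MYCN, 2 of 11 tested nuclear receptors and regulators fell (2.96% of all genes fell) and none rose (1.16% rose). NR1H2 (LXR beta, an activator of ABCA1 and ABCG1 transcription) fell by 1.05 (SE 0.22, adjusted p = 0.0313 by edgeR). PPARD fell by 0.79 (SE 0.18, adjusted p = 0.0374 by edgeR). NR1H2 was at 98.0 CPM in Lan-6, or 40.3 CPM with the trend on length and base composition removed. Of 9 cholesterol handling genes 2 fell with MYCN (2.96% of all genes fell), the lysosomal sterol carrier NPC2 by 2.73 and LCAT by 1.74. With the mesenchymal score 2.12% of all genes fell. Of 2 channel partners 1 fell with it (KCNJ8, the partner of ABCC9, by 2.90). Of the 9 cholesterol handling genes 1 fell with the score (SREBF2, a regulator of sterol synthesis, by 0.83). Of 11 glutathione genes 1 rose with the score (MGST1, by 1.73, where 3.88% of all genes rose) and none was called with MYCN. No gene of the peroxisomal or the iron-sulphur and haem lists was called with either measure. Of 6 ribosome partners 1 was (EIF2AK4, which rose by 0.58 with the score, as did 3.88% of all genes). The calls of these listed genes were not followed through the alternatives or the omissions of single lines.

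Each derived line was set beside its parent. Between SK-N-SH and SH-SY5Y, 8 of 36 expressed members differed at least 4-fold, against 18.7% of all genes. Higher in SH-SY5Y were ABCA12, at 96.1 against 0.412 CPM (233-fold, 95% counting interval 141 to 417), ABCB1, at 40.7 against 1.29 CPM (31.5-fold, 23.6 to 43.1), ABCG1 (13.4-fold), ABCD2 (6.94-fold) and ABCB4 (126 against 3 counts, 35.1-fold, 11.7 to 173). Higher in SK-N-SH were ABCC3, at 458 against 2.02 CPM (227-fold, 184 to 283), ABCA8 (25.1-fold, 11.9 to 63.6) and ABCA1 (12.8-fold, 10.8 to 15.2). ABCC1 was at 142 and 136 CPM, a ratio of 0.956 (0.921 to 0.993). The adrenergic score also differed, 1.15 in SH-SY5Y against -3.44 in its parent, and its part in these ratios was not tested.

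IMR5-75 and IMR32 were closer. Only 2 of 37 expressed members differed at least 4-fold, against 12.1% of all genes, and both were higher in IMR5-75. ABCA1 was at 4.48 against 0.349 CPM (12.8-fold, 7.46 to 23.9), and ABCB1 had 150 counts against 2 (66.6-fold, 18.1 to 555). ABCC8 was 2.75-fold higher (2.62 to 2.89), ABCA5 2.47-fold higher (2.37 to 2.57), and ABCG4, a sterol transporter of brain, was 3.48-fold higher in IMR32 (2.89 to 4.21). ABCB1 was thus higher in the derived line in both pairs, and each pair is a single comparison of 2 libraries.

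**Figure D4:**
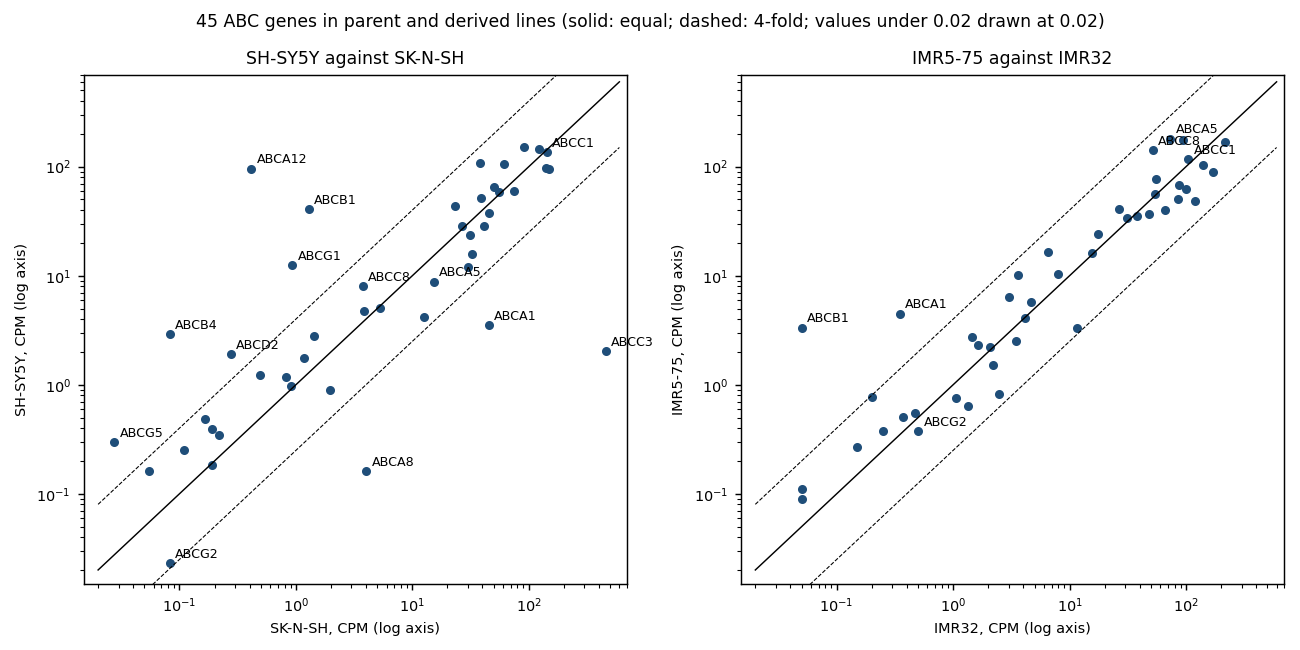
Levels of the 45 members in each derived line (vertical) against its parent line (horizontal), in CPM on log axes, with a solid line at equality and dashed lines at 4-fold. ABCC3, ABCA12 and ABCB1 lie far from equality on the left, ABCB1 and ABCA1 on the right, and ABCC1 lies near the line in both panels.

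For each of the 12 members at least 10 times its median line, expressed genes within 2 Mb were examined in the same line. The share of all genes at least 2-fold from their median in that line was not computed, so these counts have no background beside them. ABCB9 (chr12:122920951-122981649, minus strand, GRCh38) did not stand alone. In NGP 33 of its 52 neighbours were at least 2-fold above their 14-line median, 31 were highest of all lines there, and their median ratio was 2.52 on the log2 scale, close to the 3.36 of ABCB9. The high stretch held CAMKK2 (991 against a median of 83.0 CPM, 1.68 Mb away), KNTC1 (2093 against 166 CPM), SBNO1 (1012 against 98.4 CPM) and KMT5A (369 against 65.1 CPM, 0.40 Mb away on the other side). Just beyond KMT5A, RILPL2 (26.5 against 15.5 CPM) and SNRNP35 (18.1 against 17.4 CPM) were within 2-fold of their medians. OGFOD2 and ARL6IP4 overlap ABCB9 on the opposite strand and were also high in NGP (208 and 783 CPM), and without a stated strand setting their reads may be shared.

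Around other members fewer neighbours were high. ABCA12 in SH-SY5Y had none of 14 neighbours at least 2-fold up or down. ABCC3 in SK-N-SH (chr17:50634777-50692252, plus strand) had 11 of 42 up and 7 down, with a median of 0.15. Among those up were the mesenchymal marker COL1A1 at 8734 CPM and the integrin ITGA3 at 1714 CPM. Among those down was IGF2BP1, at 0.604 against a median of 141 CPM. ABCB1 in SK-N-BE(2)C had 4 of 11 up, or 2 with the trend removed, and 2 down in either case, with a median of 0.42. The largest rise there was RUNDC3B, at 18.3 against a median of 2.40 CPM, which lies on the opposite strand and overlaps ABCB1 by 85776 bases. For ABCA5 and ABCA10 in IMR5-75, 7 of 21 neighbours were up and 1 was down. The low ABCC4 level in Lan-6 was examined after it was seen, and 9 of 10 neighbours were at least 2-fold down there, with a median of -1.46 against -6.20 for ABCC4 itself. With the trend on length and base composition removed 3 of the 10 were, with a median of -0.46 against -5.07 for ABCC4.

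**Figure D5:**
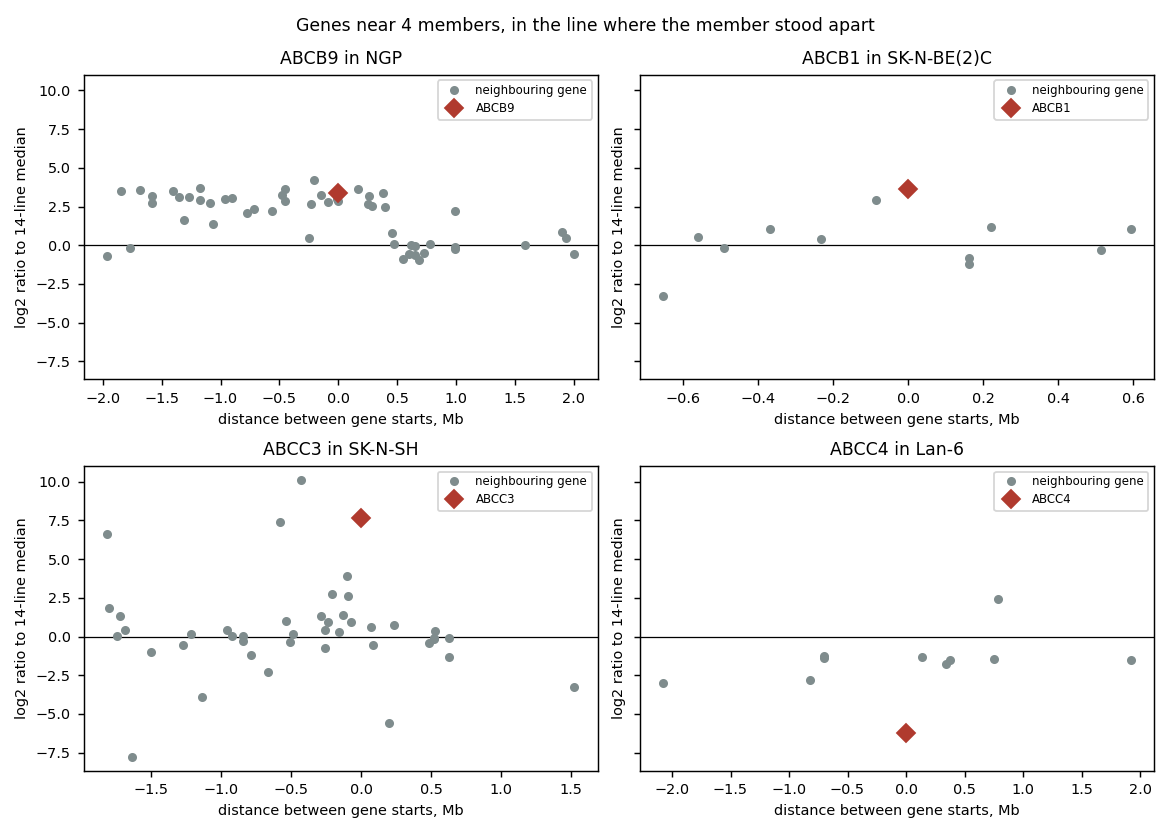
Log2 ratio of each gene to its 14-line median in the named line (vertical) against its distance in Mb from the member (horizontal), with the member as a diamond and expressed neighbours as dots. Around ABCB9 in NGP 33 of 52 neighbours are at least 2-fold up, against 4 of 11 around ABCB1 and 11 of 42 around ABCC3. Around ABCC4 in Lan-6 9 of 10 are at least 2-fold down. In every panel the member lies beyond most neighbours.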

How the data were processed

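RNA libraries of 14 lines, 1 each, were compared in 1 group. Per the submitters' processing notes, kallisto 0.44.0, DESeq2 1.48.2 and GRCh38 were used, and no strand setting is stated. The table deposited by the authors holds estimated counts per gene as whole numbers, with no scaling. That unit was read from the values. The authors' deposited log2 values, called variance-stabilised, served only as an alternative. CPM and log2 CPM (prior count 2) used TMM factors in edgeR 4.0.16 (R 4.3.3). Slopes were fitted over all genes averaging 0.5 CPM or more in 12 lines with edgeR's quasi-likelihood test, and p-values were adjusted by Benjamini-Hochberg over all of them. P-values measure the spread between lines, which includes technical differences between single libraries. The code was tested on simulated data. Lengths and positions are from GENCODE 29 (98.9% of symbols matched). A count of 0 allows 3 counts (0.0514 CPM in LS, 0.102 in Lan-6). All 91 pairs of libraries differed in their counts. The members and all 14 gene lists were chosen with earlier results of these data known. Results for a few genes are not reported here. All other members could be named, with ABCB1, ABCC1 and ABCG2 in every line, the called members, the 5 highest per length and the 5 with the largest ratio of highest to median line in full. Alternatives were DESeq2 1.42.0, its size factors, limma 3.58.1 on the deposited log2 values, other filters, other sets of lines, ranks, both measures in 1 model and removal of the length and GC trend.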

Additional observations from a re-analysis of the deposited data

How the results depend on the processing

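With 1 member called in each direction by each slope test, counts moved easily, and the cause was not tested. Members rising with MYCN numbered 6 by DESeq2 (7.82% of all genes). They numbered 0 by limma on the deposited log2 values (1.22%) and with the length and GC trend removed (1.23%). They also numbered 0 with SH-SY5Y and IMR5-75 in place of their parents (0%) and with both measures in 1 model (0%). In those fits no gene at all rose. Members falling with MYCN numbered 3 by DESeq2 (10.4% of all genes) and 2 with the trend removed (3.44%). They numbered 0 by limma (1.13%), with the derived lines (0%), with both measures in 1 model (0.00606%) and on ranks (0.526%). They also numbered 0 without GI-ME-N and Lan-6 (1.03%), an alternative chosen after seeing the data. Members rising with the mesenchymal score numbered 0 by limma (3.16% of all genes), with the derived lines (2.03%), with both measures (0.963%) and on ranks (0.733%). They also numbered 0 without the 2 farthest lines, where 0% of all genes rose. Members falling with the score numbered 8 by DESeq2 (9.16% of all genes), 2 by limma (2.82%) and 2 with all 14 lines (2.62%). They numbered 0 with the derived lines (1.07%), without the 2 farthest lines (0%) and with the trend removed (2.77%). They also numbered 0 with both measures (1.08%), on ranks (0.127%) and without GI-ME-N and Lan-6 (0.837%). Leaving out 1 line at a time gave 0 to 2 (rising, 0 to 2.72% of all genes) and 0 to 1 (falling, 0 to 6.70%) for MYCN, and 0 to 1 (rising, 1.77 to 5.90%) and 0 to 2 (falling, 0.639 to 2.89%) for the score. Of the 10 members whose slopes were followed through the alternatives (the others were not), those that changed sign were ABCC8 on MYCN without the 2 farthest lines (-0.15), and on the score ABCC3 without the 2 farthest (-0.24), ABCB4 without the 2 farthest (0.60), without SK-N-SH (0.016, the highest of -1.70 to 0.016 over single omissions) and on ranks (0.185), ABCC1 with the trend removed (0.00685), and ABCC4 without Lan-6 (-0.0439, the lowest of -0.0439 to 0.131 over single omissions), without NBL-S (-0.0375) and without both GI-ME-N and Lan-6 (-0.0689). Size factors of DESeq2 shifted no library by more than 0.0687 on the log2 scale. Depth limits ABCG2, ABCG5 and ABCB11, whose levels rest on few counts in most lines.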
